A study of Drosophila melanogaster with 21 samples.

Results

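The RNA and the open chromatin of L1 neurons of the fly optic lamina were described at 1 age, 40 h after puparium formation. The libraries were chosen by their labelled age, and 4 of the 21 samples of the series qualified: 2 libraries of bulk RNA-seq and 2 of bulk ATAC-seq, called replicate 1 and replicate 2 of each assay. All 4 came from brains of wild-type Drosophila melanogaster, from cells sorted as L1 by fluorescence-activated cell sorting (FACS). The marker that drove the sort, the sex of the animals and the number of animals per library were not given, and neither was whether the replicates came from separate animals. Whether equal replicate numbers pair the assays was not given. Where replicate 1 or 2 of both assays is set side by side, the numbers were matched by name only. RNA was measured for 7076 genes and ATAC for 26121 peaks, and all of them are described. With 1 group per assay there was no test between conditions, and no p-value is given.

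L1 is a monopolar neuron of the lamina, the first relay of the fly visual system. It receives histamine from photoreceptors, releases glutamate in the medulla and feeds the pathway for brightness increments. In mid-pupal life its axon has reached its target layers, synapses are still to be built, and a pulse of the steroid hormone ecdysone passes through the animal. ATAC-seq marks DNA that a transposase can enter, such as active promoters and enhancers. A level is given throughout in RPKM, that is reads per kilobase of gene or of peak, scaled to the library. A peak at distance 0 in the authors' annotation is called a start site peak, and where a gene had several, the highest was taken.

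The effective size of the RNA libraries, to which RPKM was scaled, was 46.1 and 46.0 M reads. They held 39.51 and 38.26 M recovered reads, a median of 1816 and 1718 reads per gene. The ATAC libraries held 19.79 and 18.05 M reads in peaks, a median of 342 and 271 per peak. Between replicates the RNA levels correlated at 0.977 and the peak levels at 0.968 (Pearson on the log2 scale, across 7076 genes and 26121 peaks). These correlations describe features of shared libraries and are not tests. For RNA, 253 genes (3.58%) differed more than 2-fold between replicates, 158 of them higher in replicate 2 and 95 in replicate 1. For ATAC, 52 peaks did.

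The L1 and neuronal markers fitted the label, while the lamina neuron markers did so only in part. Replicate 1 held svp RNA, the orphan nuclear receptor that marks L1 among lamina neurons, at 125 RPKM and replicate 2 at 116 RPKM. VGlut, the vesicular glutamate transporter, stood at 207 and 225 RPKM. The lamina transcription factor genes dac and sim were at 219 and 187 RPKM and at 62.6 and 71.9 RPKM. These 4 genes also held strong start site peaks, at 213, 243, 250 and 233 RPKM as means of both libraries, against a median of 68.2 RPKM over the genes with such a peak. The lamina gene eya was low and uneven, at 6.84 and 1.80 RPKM, and the lamina gene gcm was not among the genes of the RNA table. General neuronal genes were present in both libraries: elav, an RNA-binding protein of neurons, was at 74.1 and 63.4 RPKM, and nSyb, the neuronal synaptobrevin, at 251 and 267 RPKM.

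Genes that mark the other lamina neurons were near the bottom of the RNA table. The L2 marker bab2 was at 0.850 and 1.27 RPKM, the L4 marker ap at 1.27 and 1.34 RPKM, bsh of L4 and L5 at 3.85 and 1.83 RPKM, and the L5 marker pdm3 at 3.15 and 2.18 RPKM. The L3 marker erm was not among the genes of the RNA table. Start site peaks at these genes and at gcm differed widely. That of pdm3 stood at 191 and 282 RPKM, as high as that of sim, and those of gcm, bab2, erm and ap at 107, 85.1, 71.6 and 66.7 RPKM as means. No start site peak was credited to bsh, whose only peak was at 57.6 RPKM.

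Markers of further cell types were low, and several groups were uneven between libraries. The cholinergic genes ChAT and VAChT summed to 2.41 and 2.35 RPKM. Of the GABAergic pair, Gad1, which makes GABA, was at 0.394 and 0.360 RPKM, while VGAT, which loads it into vesicles, was at 22.8 and 24.5 RPKM. The 8 glial markers in the table summed to 23.8 and 39.5 RPKM, with the glial regulator repo at 0.253 and 1.14 RPKM and alrm at 5.45 and 21.3 RPKM. The 4 hemocyte markers summed to 24.5 and 26.3 RPKM, most of it crq, and Hml, which defines these blood cells, was at 0.313 and 0.429 RPKM. The 9 photoreceptor markers summed to 32.2 RPKM in replicate 1 and 104 RPKM in replicate 2. All 9 were higher in replicate 2, by 1.22-fold to 26.4-fold. The visual pigment gene ninaE was at 0.641 and 16.9 RPKM, and the photoreceptor surface gene chp at 9.59 and 27.1 RPKM. None of the 9 held a start site peak. Whether RNA of photoreceptors contributed to other genes of replicate 2 was not tested. Of the progenitor markers 2 of 6 were in the RNA table and of the muscle and fat body markers 1 of 8, at most 1.39 RPKM in either library. The 2 progenitor markers summed to 0.616 and 1.98 RPKM, and the monoaminergic markers ple and DAT to 1.29 and 2.74 RPKM.

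Some genes went the other way and were higher in replicate 1. The chitinase gene Cht5 was at 237 and 35.5 RPKM, Osi9 at 242 and 47.1 RPKM, and resilin, which encodes an elastic cuticle protein, at 28.5 and 2.99 RPKM. None of the 3 held a start site peak. They were chosen after their values were seen as examples of the genes furthest apart between libraries. Whether RNA of other cells contributed to them was not tested.

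**Figure D1:**
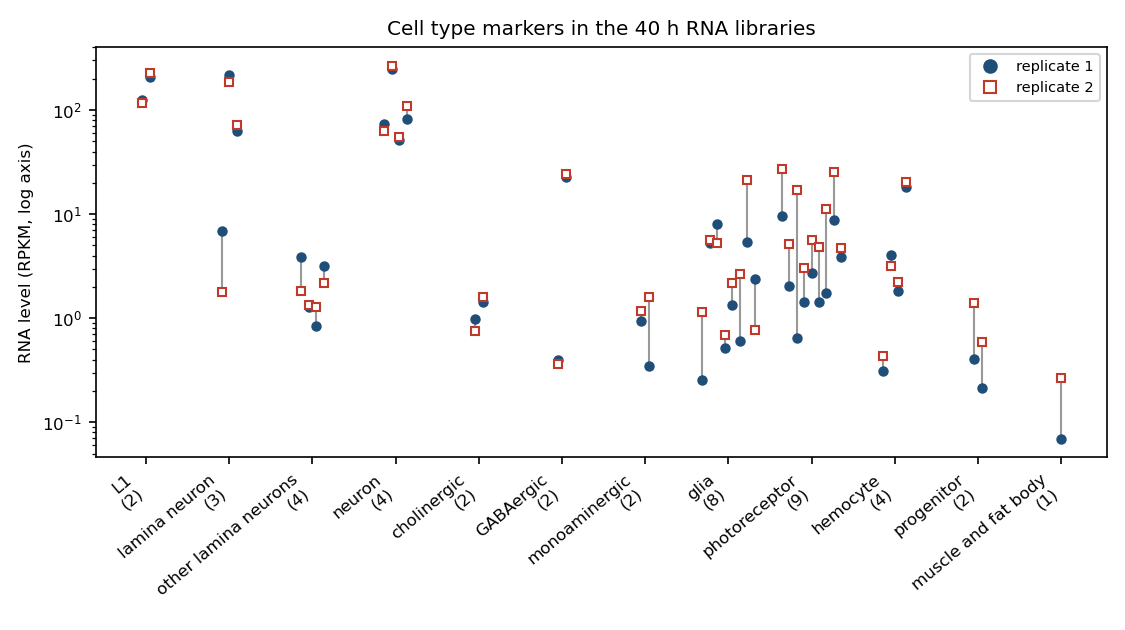
RNA level (RPKM, log axis) of each cell type marker found in the RNA table, grouped by cell type with the number of markers, in replicate 1 (filled circles) and replicate 2 (open squares); grey lines join the libraries. The L1 and neuron markers lie above 50 RPKM, and the 9 photoreceptor markers all lie higher in replicate 2.

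The L1 transcriptome at 40 h was led by 1 noncoding RNA, by tubulins, by small heat shock proteins and by ribosomal proteins. The transcript of the long noncoding RNA gene lncRNA:noe was the most abundant, at 17951 RPKM in replicate 1 and 11039 RPKM in replicate 2. The mitochondrial large ribosomal RNA, mt:lrRNA, followed at 3950 and 4642 RPKM. lncRNA:noe was thus above every other gene in both libraries, although its own libraries lay 1.63-fold apart. The tubulin genes alphaTub84B and betaTub56D, subunits of microtubules, were at 4553 and 3728 RPKM and at 3721 and 3201 RPKM. Reads of near-identical tubulin and actin copies may be shared between genes, and how they were counted was not given. In bulk libraries a low level may mean few cells with the transcript or little of it per cell, which cannot be told apart.

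Next came small heat shock protein genes, chaperones that bind unfolded proteins. Hsp67Bc was at 3193 and 3080 RPKM, Hsp23 at 2096 and 2083 RPKM, and Hsp26 at 1862 and 1798 RPKM. The libraries were close for all 3 genes. The ubiquitin and ribosomal fusion gene RpL40 was at 1758 and 1626 RPKM, CG46448 at 2257 and 1939 RPKM, and lncRNA:CR34335, the most uneven of the leading 10, at 2177 and 1149 RPKM. These 10 genes made up 10.9% and 9.34% of the summed RPKM of the table, and 8 of the 10 led both libraries.

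**Figure D2:**
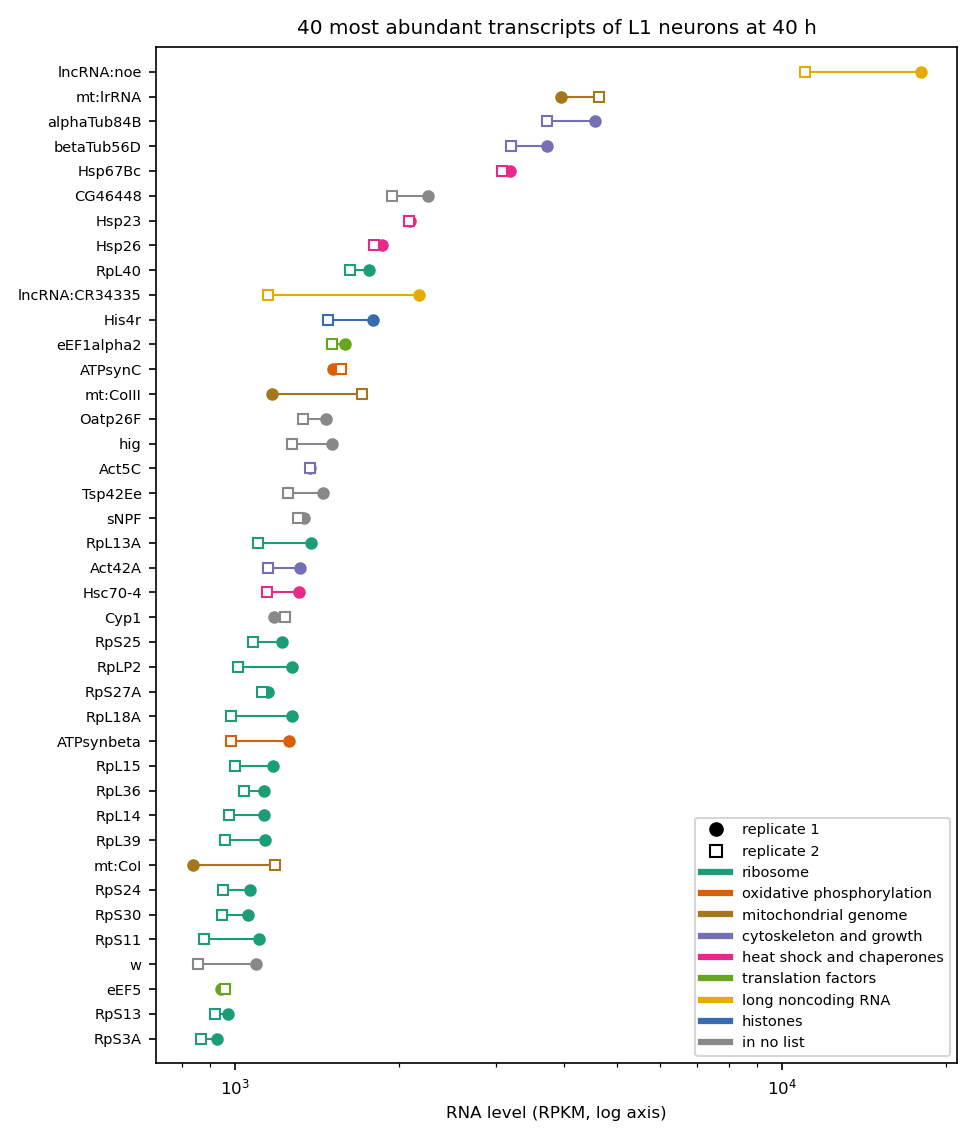
RNA level (RPKM, log axis) of the 40 genes of highest mean level in replicate 1 (filled circles) and replicate 2 (open squares), coloured by gene list. lncRNA:noe stands apart at 17951 and 11039 RPKM, and most of the lower rows are ribosomal protein genes.

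The 100 most abundant genes held 31.8% and 29.8% of the summed RPKM. By the annotated class, 96 were protein-coding, 3 were long noncoding RNAs and 1 was a ribosomal RNA. By the 19 gene lists, 48 encoded cytosolic ribosomal proteins, 6 belonged each to oxidative phosphorylation, to heat shock and chaperones and to the cytoskeleton, 5 lay on the mitochondrial genome and 21 were in no list. A share of RPKM weighs short genes as much as long ones. Counted as reads, the leading 100 held 18.7% and 16.8%.

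Genes of basal cell functions were mostly high. The 83 ribosomal protein genes had a median of 618 RPKM, against 16.9 RPKM over all genes, and 81 of them lay above the table's upper quartile of 41.0 RPKM. RpL13A and RpS25 followed RpL40, at 1378 and 1105 RPKM and at 1219 and 1083 RPKM. The list summed to 14.1% and 13.6% of the RPKM, but to 6.01% and 5.51% of the reads. All but 3 of the 83 were lower in replicate 2, by a median of 0.16 on the log2 scale, where the median of all genes was lower by 0.05. The 68 genes of oxidative phosphorylation had a median of 203 RPKM, led by ATPsynC, the ring subunit of the ATP synthase, at 1510 and 1562 RPKM. ATPsynbeta and blw, its catalytic and alpha subunits, were at 1259 and 986 RPKM and at 853 and 765 RPKM. The 71 mitochondrial ribosomal protein genes were far lower, with a median of 36.6 RPKM and none above 100 RPKM. Proteasome genes had a median of 128 RPKM (31 genes, Prosbeta3 at 217 and 195 RPKM), and vacuolar ATPase genes a median of 169 RPKM (16 genes, Vha16-1 at 387 and 217 RPKM).

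Mitochondrial transcripts went the other way between libraries. The cytochrome oxidase genes mt:CoIII and mt:CoI were at 1172 and 1710 RPKM and at 838 and 1185 RPKM, and 9 of the 11 genes of the mitochondrial genome were higher in replicate 2. Their share was 1.81% and 2.60% of the RPKM and 0.992% and 1.32% of the reads. Among translation factors, eEF1alpha2 led at 1592 and 1506 RPKM, followed by eEF5 at 946 and 961 RPKM and eIF4A at 787 and 627 RPKM. The glycolytic genes had a median of 60.4 RPKM, with Gapdh2 at 379 and 320 RPKM. Of the histone genes only 4 of the replacement type were in the RNA table, led by His4r at 1792 and 1480 RPKM.

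Cytoskeletal and presynaptic genes were abundant too. The 36 cytoskeleton and growth genes had a median of 109 RPKM, with the actin genes Act5C at 1371 and 1376 RPKM and Act42A at 1316 and 1149 RPKM. Of the 27 presynaptic genes, Rop, which binds the vesicle fusion machinery, was highest, at 358 and 287 RPKM. It was followed by nSyb and by alphaSnap, which takes fusion complexes apart, at 246 and 233 RPKM. The presynaptic median was 96.1 RPKM, and 11 of the 27 genes were above 100 RPKM. The active zone gene brp was at 51.5 and 54.6 RPKM. Of the genes in no list, sNPF, which encodes a neuropeptide precursor, stood at 1341 and 1307 RPKM, and hig, which encodes a secreted protein of the synaptic cleft, at 1506 and 1273 RPKM. The transporter gene Oatp26F was at 1471 and 1334 RPKM and the tetraspanin gene Tsp42Ee at 1449 and 1251 RPKM. These 4 genes, from sNPF on, were chosen after their values were seen.

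Surface molecules spread from near 0 to among the highest genes. The adhesion and guidance list had 110 members with a median of 9.04 RPKM, 17 above 100 RPKM and 14 below 1 RPKM. Lac, an immunoglobulin protein of septate junctions, was at 965 and 715 RPKM, the homophilic adhesion gene Fas2 at 472 and 449 RPKM, and Fas1, another adhesion gene, at 440 and 479 RPKM. The list of RNA-binding proteins had a median of 59.1 RPKM, led by pAbp, which binds poly(A) tails, at 409 and 429 RPKM. Hrb98DE and shep followed at 294 and 321 RPKM and at 223 and 315 RPKM.

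Genes of transmitter reception were mostly low at this age, while those of excitability had a median near that of all genes. The 31 transmitter receptor genes had a median of 4.25 RPKM and 11 were below 1 RPKM. The nicotinic receptor subunit gene nAChRalpha7 was the highest of the 4 above 100 RPKM, at 307 and 602 RPKM, with the libraries 1.96-fold apart, and the kainate receptor gene KaiR1D was at 232 and 217 RPKM. GABA-B-R2, a metabotropic GABA receptor, was at 121 and 111 RPKM. The histamine-gated chloride channel gene ort, through which L1 is known to respond to photoreceptors, was at 3.98 and 5.02 RPKM. The 26 voltage-gated channel genes had a median of 16.2 RPKM, against 16.9 RPKM over all genes, and none was above 100 RPKM. The highest were the potassium channel gene Shawl, at 70.1 and 76.0 RPKM, and the sodium channel accessory genes Teh1 and Teh2, at 66.5 and 72.6 RPKM and at 51.9 and 69.1 RPKM. The sodium channel gene para was at 3.22 and 10.9 RPKM, and the calcium channel gene cac at 25.3 and 49.8 RPKM. All 26 channel genes and 24 of the 31 receptor genes were higher in replicate 2. So were 23 of 28 RNA-binding and 70 of 110 adhesion genes, but only 3 of 83 ribosomal protein genes. Over all genes, 3116 of 7076 were higher in replicate 2. That library also held more photoreceptor marker RNA, and whether this contributed to these differences was not tested.

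Lamina transcription factors formed a steep order. The forkhead genes slp1 and slp2 were at 505 and 491 RPKM and at 285 and 235 RPKM, and the homeobox gene scro at 369 and 376 RPKM. These 3 genes, with dac, svp and exd, were the 6 of 21 members above 100 RPKM. The neighbours slp1 and scro did not overlap between libraries, and neither did scro and slp2. The list's median was 6.54 RPKM, and 3 members were below 1 RPKM in the mean.

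Among genes of the ecdysone response the order was steep as well. Hr4, a nuclear receptor of the early-late response, was at 229 and 301 RPKM, and the early response gene Eip75B at 235 and 222 RPKM. The libraries of these genes overlapped, so their order is not resolved. ImpL1 was next in the mean, but its libraries lay far apart at 227 and 53.2 RPKM. Blimp-1, a repressor of ftz-f1 in prepupae, was at 86.5 and 76.3 RPKM, and the ecdysone receptor gene EcR at 44.6 and 34.9 RPKM. Other nuclear receptor and regulator genes were low: Hr3 was at 4.40 and 8.67 RPKM, Eip93F at 6.26 and 9.75 RPKM and ftz-f1 at 0.788 and 0.448 RPKM. Of the 22 members 5 lay above the upper quartile of all genes and 3 below 1 RPKM.

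Long noncoding RNA genes were few and mostly low. The list's 90 members had a median of 4.82 RPKM, with 8 above 100 RPKM, and their share of 5.70% and 4.02% of the RPKM (2.70% and 2.09% of the reads) was mostly lncRNA:noe. After lncRNA:noe and lncRNA:CR34335 came lncRNA:CR40469 at 1030 and 575 RPKM. All 3 were higher in replicate 1, while 70 of the 90 were higher in replicate 2.

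The peak set is shared by all ages, so its counts by position are not those of peaks called at 40 h alone. The median peak level at 40 h was highest at start sites, but most peaks of the set lay elsewhere. Start site peaks were 6171 of 26121 (23.6%), with a median of 67.3 RPKM. Peaks within 2 kb of a start site had a median of 40.8 RPKM, those at 2 to 10 kb 36.7 RPKM, and those beyond 10 kb, the largest group with 10396 peaks, 31.3 RPKM. The order held in each library, where the start site medians were 64.0 and 70.6 RPKM and those beyond 10 kb 33.1 and 29.9 RPKM. Start site peaks were also wider (median 643 bp against 394.5 to 426 bp) and took 40.7% and 41.2% of the reads in peaks. Of the 1000 highest peaks 36.5% lay at a start site and 26.1% beyond 10 kb.

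**Figure D3:**
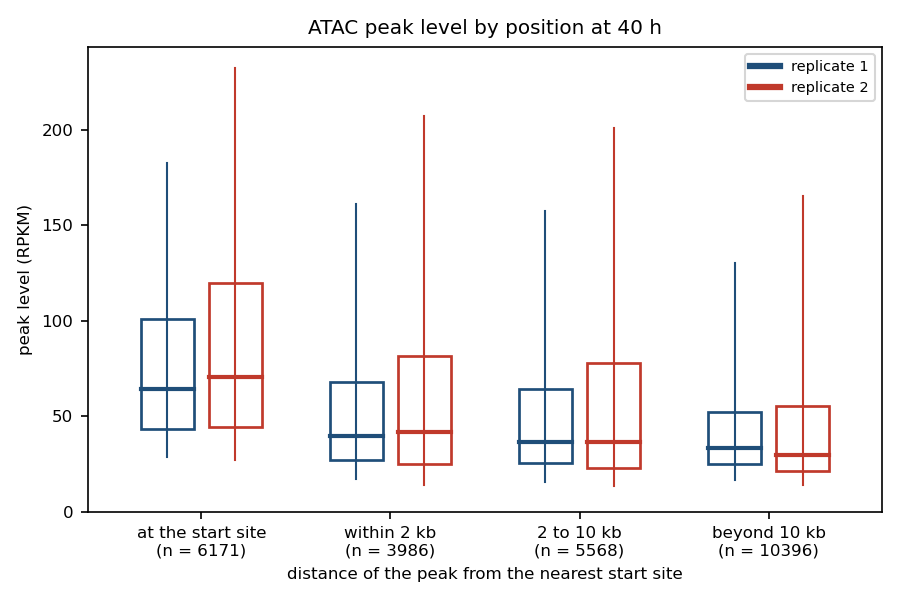
ATAC peak level (RPKM) by distance from the nearest start site in replicate 1 (blue) and replicate 2 (red); thick lines are medians, boxes quartiles, and thin lines run from the 5th to the 95th percentile over peaks. Start site peaks have medians of 64.0 and 70.6 RPKM, above every other position in both libraries.

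Of the 10 highest peaks 5 lay on chromosome Y and 2 in the histone gene cluster. The top of the list was a peak on chromosome Y, 1642046 to 1642619, nearest to Ppr-Y, at 1160.5 and 2397 RPKM. A peak near CR41379 on chromosome 2R was at 1007 and 2168 RPKM. A peak on chromosome 3R, 3169731 to 3170409, 93.2 kb from Pzl, was at 1044 and 2033 RPKM, and a peak on chromosome 2L, 23512721 to 23513697, 96.8 kb from CR41519, at 865 and 1884 RPKM. All 4 were close to 2-fold higher in replicate 2. Positions are as deposited, and no source used here names their genome build. The histone cluster peaks among the 10 lay on chromosome 2L at His3:CG33842 (21499305 to 21500162, at 692 and 745 RPKM) and at snmRNA:430r (21527739 to 21528670, at 675 and 766 RPKM).

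The 75 peaks of the histone cluster had a median of 522 RPKM and made up 48 of the 100 highest peaks. Both libraries showed them alike, with a median ratio of 1.07. Peaks at ribosomal DNA gave 12 of the 100 and chromosome Y 7, although the median of the 614 peaks on chromosome Y was only 28.1 RPKM. Many copies of a sequence can share or sum their reads, and how the authors placed such reads was not given. The levels of these peaks are therefore not read as openness of 1 locus.

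Outside these 3 repeat groups, the 1000 highest peaks lay at 581 genes, of which 88 held 3 or more. The peaks near CR41379, Pzl and CR41519 were the highest of them. At these 3 peaks replicate 2 was 2.15, 1.95 and 2.18 times replicate 1, against a median ratio of 1.06 outside the repeat groups. The repeat groups were set by chromosome Y or by gene name, so repeated sequence elsewhere may remain. Whether these 3 peaks hold such sequence was not tested, and their levels are not read as openness of 1 locus either. The grouping and the loci named here were chosen after the values were seen. Cadps, on chromosome 4, which encodes a protein that primes dense-core vesicles, held 29 peaks, 9 of them among the 1000 highest, with no start site peak. Its highest peak, at 1305797 to 1306926 and 73.9 kb from the annotated start, was at 400 and 498 RPKM, and its RNA was at 108 and 130 RPKM. The zinc finger homeobox gene zfh2, also on chromosome 4, held 16 peaks with 5 among the highest, led by 506638 to 508759 at 339 and 465 RPKM. A peak on chromosome X, 6732220 to 6732428, near CG3168 was at 545 and 690 RPKM. All these peaks were higher in RPKM in replicate 2, as were the median levels of the 1000 highest peaks at each position. ATAC replicate 2 was scaled to a smaller effective size (14.4 against 18.3 M reads). In reads the order was mixed, with 8286 and 8129 at the highest Cadps peak and 13177 and 14231 at the leading zfh2 peak.

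Genes of the ecdysone response held many of the strong peaks, as did several other lists of regulators. Hr4 held 22 peaks, of which 11 were among the 1000 highest outside the repeat groups, a number reached by only 1 other gene, Tlk, a kinase gene. The strongest Hr4 peaks, on chromosome X at 1950843 to 1951770 and 1951772 to 1952402, were at 258 and 375 RPKM and at 265 and 375 RPKM. Its start site peak was lower, at 94.5 and 108 RPKM. Eip75B held 41 peaks with 7 among the highest, EcR 20 with 5, and Eip74EF, an ETS factor gene, 20 with 4. The highest of EcR, 28.5 kb from a start site, was at 338 and 430 RPKM, and the highest of Eip74EF, on chromosome 3L at 17611468 to 17612628, at 307 and 415 RPKM. Together 12 of the 22 members held 44 of the 1000 highest peaks, or 19.1% of the list's 230 peaks, against 3.96% of the 25272 peaks outside the repeat groups. A peak among the 1000 highest lay at 10 of 21 lamina transcription factor genes, 11 of 28 RNA-binding genes, 10 of 26 channel genes and 9 of 27 presynaptic genes, against 6.18% of the genes of the RNA table. In the lamina transcription factor list 14.2% of the peaks were among them, in the heat shock list 23.3% and in the channel list 5.31%. No gene of the ribosome, mitochondrial ribosome or proteasome lists held any. These shares are descriptions, and no list was set apart from another by a test.

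Among start site peaks, lncRNA:CR45292 on chromosome 2L led at 306 and 425 RPKM (19011797 to 19013251), outside the repeat groups. Several small heat shock genes on chromosome 3L formed a block of strong peaks between 9377000 and 9384661. Outside these bounds, at 9373797 to 9374067, lay the start site peak of Hsp22, at 275 and 324 RPKM. Hsp22 was not among the genes of the RNA table. The start site peak of Hsp67Ba was at 300.0 and 415 RPKM, that of Hsp23 at 289 and 358 RPKM, that of Hsp26 at 238 and 296 RPKM and that of Hsp27 at 230 and 281 RPKM. Hsp67Bc, whose RNA was the highest of the family, had no start site peak credited to it; each peak carries 1 nearest gene in the authors' annotation. Of the 17 genes of the heat shock list 16 held a start site peak, with a median of 146 RPKM, and the list's median RNA was 99.4 RPKM.

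By chromosome the median peak ran from 36.1 RPKM on 2R to 51.4 RPKM on X, with chromosome Y at 28.1 RPKM. For start site peaks outside chromosome Y the range was narrower, from 61.2 RPKM on 2R to 74.1 RPKM on X. The X median was the highest of the 7 chromosomes in both libraries for all peaks.

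Across genes, RNA level said little about the level of the start site peak. For the 4608 of 7076 genes (65.1%) with a start site peak, Spearman's rho was 0.112 and Pearson's r on log2 values was 0.127. Each pairing of an RNA library with an ATAC library gave a rho from 0.0889 to 0.134. Genes are not independent replicates, and the points share 2 libraries per assay, so these values are a description with no p-value. The start site level went with the width of the peak (rho 0.590) and with the number of peaks at the gene (rho 0.394), more than with RNA.

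With the genes cut by RNA level into 10 equal groups, the start site medians formed a shallow bowl. The lowest group, with a median RNA of 1.33 RPKM, had a median start site peak of 73.1 RPKM. The group with 12.9 RPKM of RNA had 60.7 RPKM, and the highest group, at 219.5 RPKM of RNA, had 80.8 RPKM. The start site medians stayed between 60.7 and 80.8 RPKM in all 10 groups. In the reverse order, the median RNA was 13.9 RPKM in the lowest of 10 groups by start site peak and 27.9 RPKM in the highest.

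**Figure D4:**
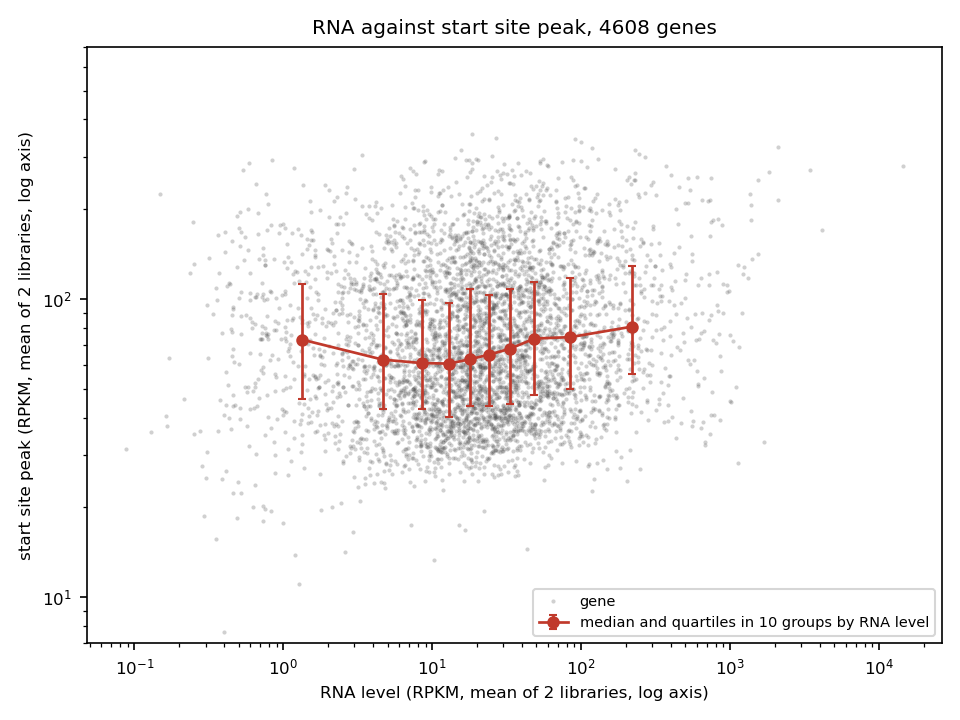
Start site peak level against RNA level (RPKM, both log axes, means of 2 libraries) for 4608 genes (grey points), with the median and quartiles of the start site peak in 10 equal groups by RNA level (red). The medians run from 60.7 to 80.8 RPKM, with wide quartiles in each group.

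The weak relation held lists that lay in opposite corners. Ribosomal protein genes had the highest RNA but a start site median of 65.1 RPKM (59 of 83 with such a peak), close to that of all genes. The medians of oxidative phosphorylation (57.0 RPKM), the proteasome (48.3 RPKM) and the mitochondrial ribosome (45.0 RPKM) were below it. Genes of the ecdysone response had low RNA, at a median of 11.6 RPKM, and the highest start site median of the lists, 202 RPKM over the 14 of 22 with a peak. Lamina transcription factors (172 RPKM) and adhesion genes (120 RPKM) had high start site peaks and RNA medians below that of all genes. Voltage-gated channels had a start site median of 130 RPKM, while their RNA median was 14.3 RPKM against 17.2 RPKM for all genes in replicate 1 and 18.2 against 16.4 RPKM in replicate 2. High in both were the cytoskeleton (157 RPKM), presynaptic (159 RPKM), RNA-binding (155 RPKM) and heat shock lists. These list medians are descriptions, and the lists were chosen with results of these data known.

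**Figure D5:**
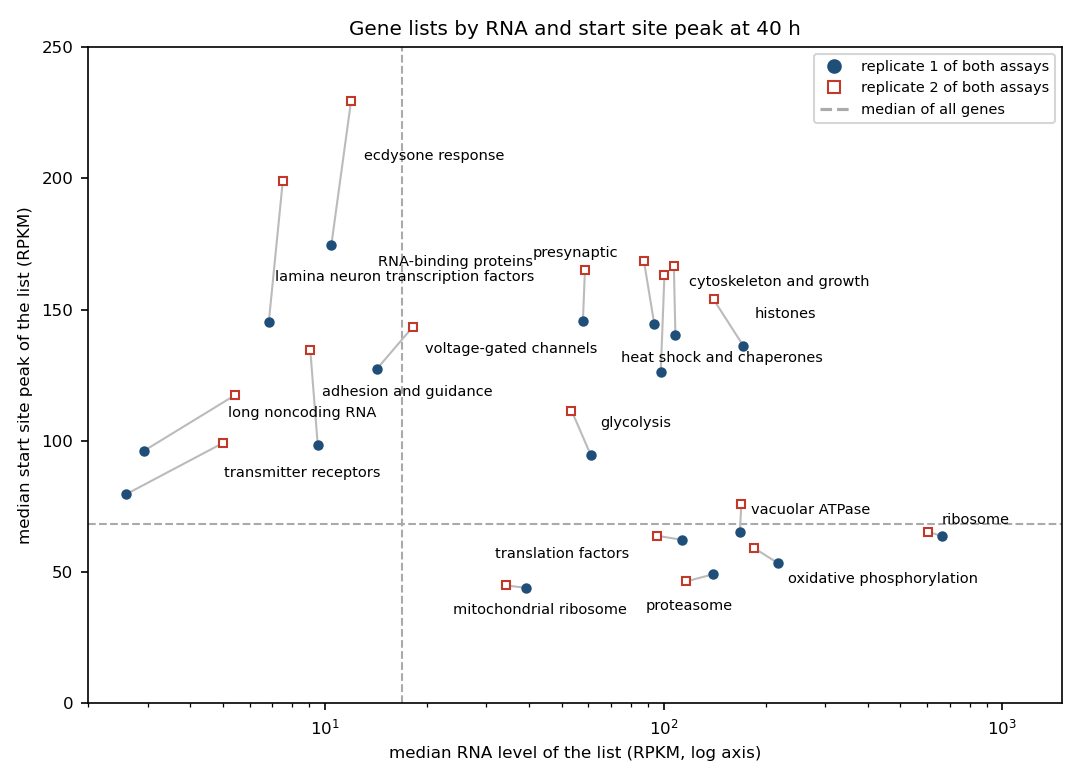
Median start site peak (RPKM) against median RNA level (RPKM, log axis) of each gene list with start site peaks in replicate 1 of both assays (filled circles) and replicate 2 of both assays (open squares); dashed lines mark the medians of all genes. RNA medians cover all members of a list, start site medians only those with such a peak. Ribosome, respiratory chain and proteasome genes lie at the lower right. Ecdysone response genes lie at the upper left, with start site medians of 174 and 229 RPKM.

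Within lists the relation differed in size. Among the 23 voltage-gated channel genes with a start site peak rho was 0.543, among 31 translation factor genes 0.336 and among 96 adhesion genes 0.272. Among 23 presynaptic genes it was 0.000988, among 59 ribosomal protein genes -0.123 and among 24 long noncoding RNA genes -0.196. The list values rest on few genes and are not compared by a test. Leaving out the ribosome, respiratory chain, proteasome, translation and ATPase lists gave a rho of 0.137 over 4399 genes.

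Genes at the extremes were those whose ranks in RNA and in start site peak differed by more than 50% of the genes in both replicates. RNA ranked higher for 376 genes (8.16% of 4608) and the start site peak for 467 (10.1%). On the RNA side stood 28 of 59 ribosomal protein genes, 26 of 48 of oxidative phosphorylation and 13 of 22 of the proteasome. None of these lists had a gene on the other side, which genes in the upper 50% of RNA ranks cannot join. Above the upper quartile of RNA lay 81 of 83, 66 of 68 and 31 of 31 members of these lists. Their absence from the other side was thus nearly fixed in advance by their RNA level. RpS27A had RNA at 1151 and 1121 RPKM and a start site peak of 26.3 and 29.9 RPKM. RpL40, among the 10 most abundant transcripts, had a start site peak of 30.4 and 35.9 RPKM. The complex I subunit genes ND-B14 and ND-B12 had RNA at 252 and 245 RPKM and at 191 and 174 RPKM, with start site peaks of 26.9 and 27.1 RPKM in the mean. SdhD, of complex II, had RNA at 202 and 165 RPKM and a peak of 29.4 RPKM. RpS18, RpS7 and CG18815 completed the first 8. The genes on this side were short, with a median length of 1328 bp against 2674 bp over all 4608, and their start site peaks narrow, at 450 bp against 663.5 bp.

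On the other side were open start sites with little RNA. The nicotinic receptor gene nAChRalpha5 had a start site peak of 234 and 336 RPKM and RNA of 0.217 and 0.949 RPKM, or 94 and 409 reads. The exact Poisson intervals of the RNA values, 0.176 to 0.266 and 0.859 to 1.05 RPKM at a 95% level, did not overlap, and they cover counting error only. The Rac exchange factor gene sif had a peak of 233 and 309 RPKM and RNA of 0.461 and 0.612 RPKM. The transcription factor gene fru, known for sex-specific circuits, had a peak of 187 and 261 RPKM and RNA of 0.434 and 1.10 RPKM. The homeobox gene mirr had a peak of 167 and 234 RPKM and RNA of 0.145 and 1.02 RPKM. Stacl, lncRNA:CR45919, lncRNA:CR46004 and asRNA:CR45281 completed the first 8, and RNA was higher in replicate 2 for all 8. The antisense gene may share reads or a start site with its partner. By list, this side held 8 of 14 ecdysone response genes, 11 of 24 long noncoding RNAs, 9 of 30 transmitter receptors and 28 of 96 adhesion genes. Among the ecdysone genes were Hr3, with a start site peak of 206 and 273 RPKM, and Eip93F, at 202 and 263 RPKM. Genes of this side were long (median 5594 bp), held a median of 4 peaks against 1, and had wide start site peaks (915 bp). Both sides were picked in part by start site level. Over all genes that level went with peak width (rho 0.590) and peak number (rho 0.394). Widths and peak numbers of the 2 sides therefore cannot be told apart from this choice.

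A set of 412 genes lay above the upper quartile of both measures (RNA above 41.0 and start site peak above 109.3 RPKM). The start site peaks of the set were wide too, at a median of 1018.5 bp, and its genes held a median of 2 peaks. The set included Hsp23, with a start site peak of 289 and 358 RPKM. lncRNA:noe, the most abundant transcript, had a start site peak of 240 and 317 RPKM, betaTub56D one of 244 and 296 RPKM and ATPsynC one of 218 and 283 RPKM. The lamina gene scro was in the set too, at 216 and 344 RPKM and with 55 peaks in all. By list, 17 of 36 cytoskeleton genes, 12 of 28 RNA-binding genes, 11 of 27 presynaptic genes and 7 of 17 heat shock genes were in it. Of all genes with RNA values 5.82% were in it, and of the ribosomal protein genes 7 of 83.

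Genes with a start site peak had more RNA than genes without. The median was 20.7 RPKM over 4608 genes with and 10.3 RPKM over 2468 genes without, a ratio of 2.01. The medians were 20.9 and 10.7 RPKM in replicate 1 and 20.4 and 10.1 RPKM in replicate 2. Of the genes with a peak 12.6% reached 100 RPKM and 3.82% were below 1 RPKM, and of those without 6.20% and 9.04%. The peak is credited to 1 nearest gene, so a gene without one need not have a closed start. Since the peak set is shared by all ages, a gene with one need not have had it called at 40 h. A neighbouring gene held a start site peak for 72.9% of the genes without and for 60.96% of those with one. Abundant genes without were Hsp67Bc, lncRNA:CR34335, His4r, RpL13A, RpS25 and ATPsynbeta, besides the genes of the mitochondrial genome.

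Start site peaks also lay at genes outside the RNA table. Of 5680 genes with such a peak 1072 were not among its 7076 genes, 654 of them protein-coding and 174 long noncoding. Their median start site peak was 59.6 RPKM, against 68.2 RPKM for the genes in the table.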

How the data were processed

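Bulk RNA-seq (SMART-seq2) and bulk ATAC-seq libraries of sorted L1 neurons were read from 2 tables. The RNA values are RPKM per gene, per the file headers, as the authors deposited them, and their filter on genes was not stated. The unit of the peak table was not labelled, and its values were read as RPKM of each peak, since level times peak width gave whole reads (within 0.1 of a read). Peaks carry the authors' width, nearest gene and distance to its start site, and their names speak of a merged call. Bowtie2 2.2.9, MACS2 2.1.1, bedtools and edgeR 3.26.8 were named per the submitters' processing notes, with no role for each.

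The 40 h columns were used, 2 per table, and 0 sample columns lacked a sample. The other 5 RNA columns served to recover gene lengths. With them, whole reads came out for 7076 of 7076 genes (within 0.001 of a read) and 26121 of 26121 peaks, in steps tested on simulated data. Reads over effective size were 0.856 and 0.832 for RNA and 1.08 and 1.25 for ATAC, whose effective sizes were 18.3 and 14.4 M. RPKM was thus not scaled to the sum of these reads in either assay. Levels are means of 2 libraries unless both are given, and logs are log2(RPKM + 1). RNA genes were joined to start site peaks by exact symbol. Biotypes and neighbours came from the RefSeq gene table of Drosophila release 6 (6643 symbols equal, 429 through a synonym, 4 unmatched), and none of its coordinates is printed.

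No test was run, since each assay has 1 group. The members, the 19 gene lists and the 12 marker lists were chosen with earlier results of these data known. Named genes were the 10 of highest mean RPKM, the 3 highest of each list, the markers, the 10 highest peaks, the 3 highest at more than 2 kb from a start site, and the 8 with the largest rank difference in each direction that kept their side in both replicates. The repeat groups, and any gene said to be so, were chosen after the values were seen; so were the genes of the most open loci. Alternatives left out 1 library, filtered genes under 1 RPKM, used reads or level times width, another pseudocount (0.1), other peaks per gene, or current symbols. Software was Python 3.11.15 with pandas 2.3.3, numpy 2.4.6, scipy 1.17.1 and matplotlib 3.10.9.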

Additional observations from a re-analysis of the deposited data

How the results depend on the processing

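The correlations of RNA level with start site peak level stayed positive in the alternatives. The ratios of median RNA given below stayed above 1. Levels, shares and percentages cannot be negative, so for them a change of sign was not possible and its absence says nothing about stability. With genes both ranked and counted by reads instead of RPKM, the first 10 genes held 7.30% and the first 100 25.5%. The share in reads of the ribosome list was 5.77%, of oxidative phosphorylation 2.65%, of long noncoding RNA 2.40%, of the cytoskeleton 4.13%, of heat shock 2.01% (2.844% with genes of at least 1 RPKM only) and of the mitochondrial genome 1.16%. Of the 1000 highest peaks 35.8% to 36.6% lay at a start site with 1 ATAC library left out, 51.7% when ranked by level times width, 34.4% among the 250 highest, and 34.4% outside the repeat groups, an alternative chosen after seeing the data. The rho of RNA against start site peak ran from 0.0960 to 0.128 with 1 library left out. It was 0.129 with genes of at least 1 RPKM, 0.129 with the highest peak at any distance, and 0.137 without the ribosome, respiratory chain, proteasome, translation and ATPase lists, the latter also chosen after seeing the data. Pearson's r ran from 0.110 to 0.143, and in the same 3 settings it was 0.145, 0.143 and 0.159; with summed peaks it was 0.114. The ratio of median RNA with and without a start site peak was 1.95 to 2.03 with 1 RNA library left out and 1.68 with genes of at least 1 RPKM. The causes of these shifts were not tested. Another 36 summary values moved by less than the replicate spread. So did 220 values of single genes or peaks, but their only alternative left out 1 of the 2 libraries. The spread came from those same 2 libraries, so this outcome was fixed in advance and says nothing about stability. Summary values with 1 library left out are close to that case. With 2 libraries per assay the spread itself is poorly known. No paired analysis was possible because each assay has 1 group and no result comes from a test. The alternatives for promoter motifs were not run, since no promoter sequence was at hand.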
